A study of Mus musculus with 6 samples.

Results

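The MS4A4 to MS4A8 genes were examined after *C. albicans* challenge in wild type (WT) macrophages and in macrophages that lack progranulin (PGRN KO), the secreted growth factor encoded by *Grn*. The 10 genes, *Ms4a4a*, *Ms4a4b*, *Ms4a4c*, *Ms4a4d*, *Ms4a6b*, *Ms4a6c*, *Ms4a6d*, *Ms4a7*, *Ms4a8a* and *Ms4a14*, were taken by symbol from the 54532 genes of the expression table. They were chosen by symbol, position in the cluster and myeloid expression, with the difference of *Ms4a4a* between these same genotypes already known. Their differences between WT and PGRN KO are therefore given as a description, with no p-value, and calls among them are no independent evidence.

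According to the labels, the cells came from the peritoneal cavity of C57BL/6J mice. Wells with 2000000 cells each were exposed in vitro for 6 hours to as many *C. albicans* cells, a ratio of 1. Both groups received the fungus, and no unchallenged cells were analysed here, so a difference between genotypes cannot be divided into one present before challenge and one that arose with it. There were 3 WT libraries (replicates 1, 2 and 3) and 3 PGRN KO libraries (replicates 4, 5 and 6), each with 15996786 to 17551619 counted fragments. The knockout removes PGRN from every cell of the mouse. The study's methods name a different supplier for each genotype, so that genotype and source of the mice cannot be told apart. The study also speaks of macrophages grown from bone marrow and of another ratio of fungus to cells, so that neither the source of the cells nor the dose is settled, and the labels were followed here. Mice were matched for sex and age per the methods, which give an age in weeks for the infected mice but not for the donors of these cells. The number of mice behind a library is also not stated, so that the spread between libraries may be technical. *Grn* was at 323, 337 and 325 FPKM (fragments per kilobase of gene model, scaled to the size of the library) in WT and at 0.0166, 0 and 0.0167 FPKM in PGRN KO, as the labels say.

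MS4A proteins cross the membrane with 4 segments and keep both ends inside the cell. The best known are CD20, encoded by *Ms4a1* on B cells, and the β chain of the high-affinity IgE receptor, encoded by *Ms4a2* on mast cells and basophils. Many of the others are made by monocytes and macrophages, where they sit beside signalling receptors. MS4A4A, for instance, is a surface marker of alternatively activated and tissue macrophages that associates with the β-glucan receptor Dectin-1, and variants at the human MS4A cluster have been tied to the amount of soluble TREM2.

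The 10 genes lay between bases 11067471 and 11604849 of mouse chromosome 19 (GRCm38), a span of 537 kb, with 6 on the plus and 4 on the minus strand. The encoded proteins, translated from the GENCODE models, were 217 to 290 residues long, except MS4A14 with 1232 residues. They formed close sets. MS4A4B and MS4A4C were identical at 84.5% of aligned residues, MS4A4C and MS4A4D at 75.6%, MS4A6B and MS4A6C at 72.9%, and MS4A6B and MS4A6D at 71.3%. MS4A4A was at most 47.7% identical to another member, MS4A4C. MS4A14, MS4A7 and MS4A8A were further apart, at most 38.3%, 37.7% and 37.1% identical to any member. The least alike pair was MS4A7 and MS4A8A at 26.4%.

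**Figure D1:**
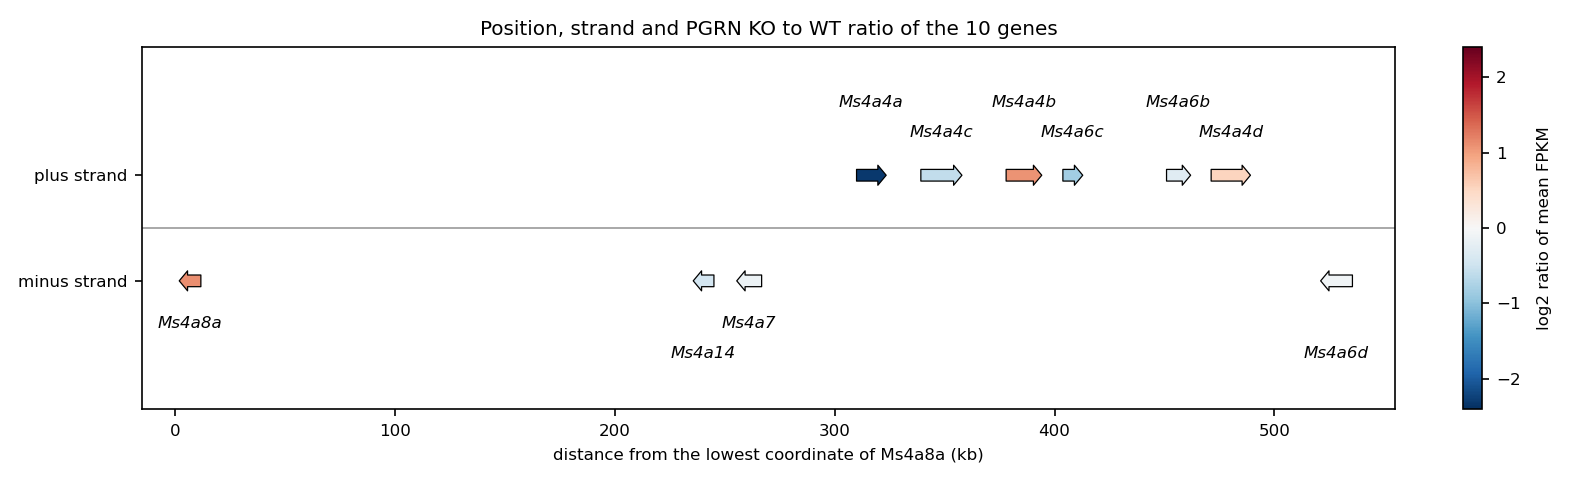
Position of the 10 genes on mouse chromosome 19 as distance in kb from the lowest coordinate of Ms4a8a (x axis) and strand (y axis), with arrows pointing along transcription. Colour gives the log2 ratio of mean FPKM, PGRN KO over WT. The lowest ratio, at Ms4a4a, and the raised ratio of Ms4a4b lie among genes with ratios nearer to 0. Ms4a8a, also raised, lies apart from the others at the end with the lowest coordinates.

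Promoter windows of 300 bases, from 250 before to 50 after the transcript start, were read from RefSeq (GRCm38.p6). A window was matched for 9 of the 10 genes, with 2 windows for *Ms4a7*. Those of *Ms4a4a* and *Ms4a8a* are shown because these genes had the lowest and the highest fold change among the tested members. They lie at chr19:11375238-11375537 on the plus strand and at chr19:11081054-11081353 on the minus strand. Each is written 5′ to 3′ along its gene, and capitals mark matches to the motifs listed after the sequences, of which *Ms4a4a* had none.
Ms4a4a: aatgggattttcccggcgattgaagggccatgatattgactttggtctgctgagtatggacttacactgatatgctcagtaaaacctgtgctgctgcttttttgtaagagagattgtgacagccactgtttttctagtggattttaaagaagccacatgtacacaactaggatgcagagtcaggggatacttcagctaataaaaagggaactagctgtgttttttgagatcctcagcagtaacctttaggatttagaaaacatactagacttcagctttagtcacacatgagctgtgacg
Ms4a8a: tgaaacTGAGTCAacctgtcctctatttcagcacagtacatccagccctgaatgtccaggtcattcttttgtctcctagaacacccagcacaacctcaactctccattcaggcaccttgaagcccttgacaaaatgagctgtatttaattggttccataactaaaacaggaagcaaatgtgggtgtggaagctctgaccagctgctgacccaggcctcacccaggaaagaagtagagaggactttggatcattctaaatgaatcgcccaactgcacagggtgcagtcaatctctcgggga

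Letters of 7 known binding motifs were searched on both strands. The *Ms4a4a* and *Ms4a4c* windows held 0 of the 7. *Ms4a8a* held a match to the AP-1 letters TGANTCA, as did *Ms4a4b*, *Ms4a14* and 1 window of *Ms4a7*, against 7.81% of all 32851 mouse windows. The interferon-stimulated response element, searched as GAAANNGAA, stood in the windows of *Ms4a6b*, *Ms4a6c* and *Ms4a7*, against 8.56% of all windows. The TATA box, searched as TATAAA, was found in *Ms4a4b* and *Ms4a14*, and in 13.6% of all windows. The C/EBP letters TTNNGCAA were found in *Ms4a4d*, and in 10.8% of all windows. No member window held the ETS/PU.1 letters GAGGAAG, present in 13.6% of all windows. The same was true of the STAT element GAS, searched as TTCNNNGAA and present in 8.30%. The E-box letters CACGTG, present in 7.15%, were also in no member window. A match is a description of these letters only.

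The windows of 2 paralog pairs could be aligned over most of their length and are shown because the members of each pair stood at very different levels. *Ms4a4c* (chr19:11407415-11407710) and *Ms4a4b* (chr19:11443308-11443603) were identical at 223 of 290 aligned bases (76.9%). *Ms4a6c* (chr19:11469191-11469417) and *Ms4a6b* (chr19:11518309-11518535) were identical at 189 of 220 (85.9%), with an unbroken shared run of 48 bases. All 4 are on the plus strand, and capitals mark the bases that differ from the partner or face a gap. The RefSeq starts of *Ms4a4c* and *Ms4a6b* lie 2891 and 2047 bases inside the gene models of the table. In the same alignment, other pairs of member windows were identical at 51.6% to 62.5% of aligned bases.
Ms4a4c: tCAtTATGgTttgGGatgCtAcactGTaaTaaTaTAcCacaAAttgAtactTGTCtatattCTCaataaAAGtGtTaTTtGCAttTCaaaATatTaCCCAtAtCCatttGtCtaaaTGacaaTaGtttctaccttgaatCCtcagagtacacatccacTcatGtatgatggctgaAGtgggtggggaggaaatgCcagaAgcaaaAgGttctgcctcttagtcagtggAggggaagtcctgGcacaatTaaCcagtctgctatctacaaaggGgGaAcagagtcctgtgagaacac
Ms4a4b: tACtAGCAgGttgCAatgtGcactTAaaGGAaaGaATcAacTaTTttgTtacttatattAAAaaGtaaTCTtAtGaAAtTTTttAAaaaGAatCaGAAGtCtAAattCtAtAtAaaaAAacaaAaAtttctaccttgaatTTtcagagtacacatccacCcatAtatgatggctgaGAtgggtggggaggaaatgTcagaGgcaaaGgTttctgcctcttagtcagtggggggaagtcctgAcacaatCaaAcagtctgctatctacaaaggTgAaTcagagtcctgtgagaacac
Ms4a6c: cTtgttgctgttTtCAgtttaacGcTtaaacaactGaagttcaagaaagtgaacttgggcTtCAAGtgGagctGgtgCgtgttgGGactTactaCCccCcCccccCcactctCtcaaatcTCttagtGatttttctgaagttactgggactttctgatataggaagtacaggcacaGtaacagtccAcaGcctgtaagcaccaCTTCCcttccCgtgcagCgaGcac
Ms4a6b: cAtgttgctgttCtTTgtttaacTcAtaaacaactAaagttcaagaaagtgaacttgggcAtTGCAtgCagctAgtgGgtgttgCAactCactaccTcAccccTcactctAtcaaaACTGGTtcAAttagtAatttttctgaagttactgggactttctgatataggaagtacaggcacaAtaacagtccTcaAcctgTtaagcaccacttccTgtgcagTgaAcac

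Levels of the 10 genes spanned more than 3 orders of magnitude. *Ms4a6d*, which encodes a macrophage protein described as a partner of VSIG4, was the highest in every library and made up 71.3% to 73.4% of the summed FPKM of the 10 genes in WT and 76.0% to 77.7% in PGRN KO. In WT the order by mean FPKM was *Ms4a6d*, *Ms4a4a*, *Ms4a4c*, *Ms4a6c*, *Ms4a8a*, *Ms4a7*, *Ms4a6b*, *Ms4a4b*, *Ms4a14* and *Ms4a4d*. The ranges over WT libraries overlapped between *Ms4a4c* and *Ms4a6c*, between *Ms4a6c* and *Ms4a8a*, between *Ms4a4b* and *Ms4a14*, and between *Ms4a14* and *Ms4a4d*. In PGRN KO *Ms4a4a* moved from rank 2 to rank 6 and *Ms4a8a* from rank 5 to rank 2, giving *Ms4a6d*, *Ms4a8a*, *Ms4a4c*, *Ms4a6c*, *Ms4a7*, *Ms4a4a*, *Ms4a6b*, *Ms4a4b*, *Ms4a4d* and *Ms4a14*. There the ranges of *Ms4a4c*, *Ms4a6c* and *Ms4a7* overlapped with each other, and those of *Ms4a6c* and *Ms4a7* also with *Ms4a4a*. Rank 6 of *Ms4a4a* was thus not distinct from ranks 4 and 5. Ranges also overlapped between *Ms4a6b* and *Ms4a4b*, and between *Ms4a4d* and *Ms4a14*.

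**Figure D2:**
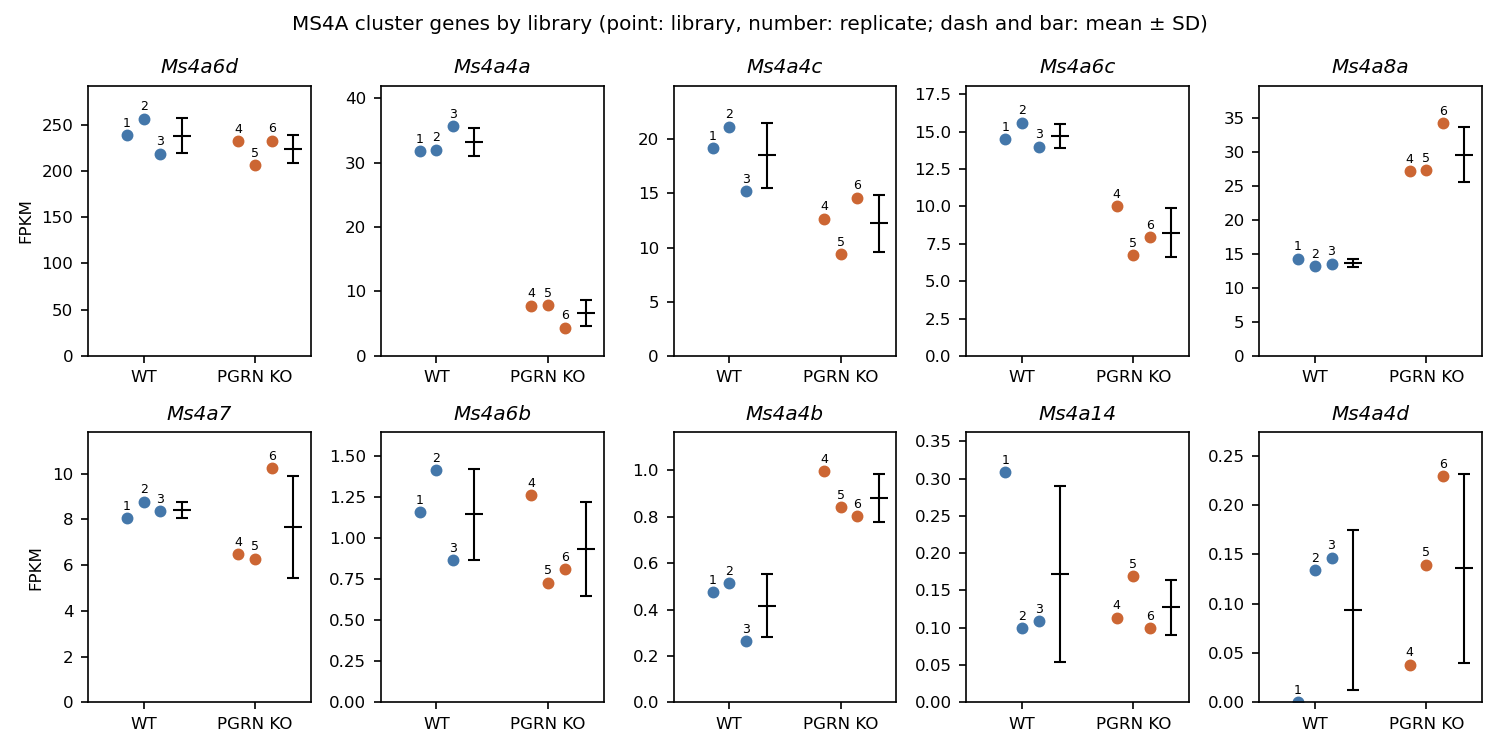
FPKM (y axis, from 0 in each panel) of each of the 10 genes in 3 WT and 3 PGRN KO libraries (x axis). Points are libraries with their replicate number, and the dash and bar give mean ± SD (n = 3). Ms4a4a and Ms4a6c are lower and Ms4a8a is higher in all 3 PGRN KO libraries, while the points of Ms4a6d overlap between genotypes.

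Genotypes were compared with limma on log2(FPKM + 1), a scale that understates the fold of low genes, over the 8882 genes that averaged at least 1 FPKM. Of the 10 genes, 7 entered the fit. *Ms4a6b* was the lowest inside it (mean 1.04 FPKM) and *Ms4a4b* the nearest outside it (mean 0.648 FPKM), together with *Ms4a14* and *Ms4a4d*. At an adjusted p of 0.05, 3 of the 7 were called, *Ms4a4a* and *Ms4a6c* lower and *Ms4a8a* higher in PGRN KO. Of all tested genes 24.2% were called, 10.4% higher and 13.8% lower, which is 2151 genes. This background depended on single libraries, with 713 genes called without WT replicate 1, 855 without WT replicate 2, and 883 without WT replicate 3. Leaving out PGRN KO replicate 4 gave 1390, and leaving out replicate 6 gave 3668. WT and PGRN KO values were fully separate for 4 of the 7, 3 lower and 1 higher, against 48.8% of all tested genes (27.6% lower and 21.2% higher). The median log2 fold change was −0.15 over the 7 genes and −0.03 over all tested genes. The former is the value of *Ms4a6b*, whose WT mean (1.15 FPKM) lay above the filter and whose PGRN KO mean (0.935 FPKM) lay below it. *Ms4a6b* thus passed the filter only through WT. With a mean FPKM of at least 5 required, *Ms4a6b* was not tested and the median of the members was −0.36. In a bulk library fewer cells of a type and less RNA per cell cannot be told apart.

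*Ms4a4a* (ENSMUSG00000101389, bases 11375523 to 11392790, plus strand) had the largest difference. It was at 31.7, 32.0 and 35.7 FPKM in the WT libraries and at 7.80, 7.83 and 4.36 FPKM in the PGRN KO libraries. Every PGRN KO library was far below every WT library, with replicate 6 the lowest of all. The means were 33.1 ± 2.19 and 6.67 ± 2.00 FPKM (SD, n = 3 each), so that PGRN KO was at 20.1% of WT, 4.97-fold lower, with a log2 fold change of −2.19 ± 0.20 (SE). The values rested on 396 to 538 fragments per WT library and 63 to 124 per PGRN KO library. None of the 31-base words of its transcript occurred in the GENCODE transcripts of other genes, which were read in the sense direction only.

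Its neighbour *Ms4a4c* (ENSMUSG00000024675, bases 11404770 to 11427246, plus strand) was at 19.1, 21.2 and 15.2 FPKM in WT and 12.7, 9.41 and 14.6 FPKM in PGRN KO. The groups did not overlap, but the highest PGRN KO library came within 1 FPKM of the lowest WT library. The log2 fold change of −0.57 ± 0.18 was not called. It was called on a TPM scale, after correction for gene length and without PGRN KO replicate 6. *Ms4a6c* (ENSMUSG00000079419, bases 11469366 to 11482192, plus strand) was at 14.5, 15.6 and 14.0 FPKM in WT and at 9.999, 6.75 and 7.96 FPKM in PGRN KO. All PGRN KO libraries were lower, the mean being 56.0% of that of WT (8.24 ± 1.64 against 14.7 ± 0.818 FPKM), and the log2 fold change of −0.78 ± 0.14 was called. Of the 31-base words of *Ms4a4c* 17.1% also occur in other genes, mostly in *Ms4a4b*, and of those of *Ms4a6c* 21.9%, mostly in *Ms4a6b*, so that part of their fragments could be split between paralogs. Both models are also overlapped on the opposite strand, *Ms4a4c* by the pseudogene *Gm5692* and *Ms4a6c* by *BE692007*, and the sources used here do not say whether strand was used in counting.

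*Ms4a8a* (ENSMUSG00000024730, bases 11067471 to 11081102, minus strand), a gene described in alternatively activated macrophages of tumours, went the other way. It was at 14.3, 13.2 and 13.6 FPKM in WT and at 27.2, 27.3 and 34.3 FPKM in PGRN KO. The 3 WT libraries lay close together, and the lowest PGRN KO library was well above them. The means were 13.7 ± 0.559 and 29.6 ± 4.05 FPKM, a ratio of 2.16 and a log2 fold change of 1.05 ± 0.11. In the same search 0.569% of its 31-base words occurred in transcripts of other genes. A ratio of the 2 genes within a library needs no scaling between libraries: *Ms4a4a* over *Ms4a8a* was 2.22, 2.42 and 2.63 in WT and 0.286, 0.287 and 0.127 in PGRN KO. In WT *Ms4a4a* was thus above *Ms4a8a* in each library, and in PGRN KO below it.

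The remaining tested members were not called. *Ms4a6d* (ENSMUSG00000024679, bases 11586604 to 11604849, minus strand) was at 239, 256 and 219 FPKM in WT and at 232, 206 and 233 FPKM in PGRN KO. These ranges overlapped, with a log2 fold change of −0.09 ± 0.11. Taken against it, *Ms4a4a* was at 12.5% to 16.3% of *Ms4a6d* in WT and at 1.87% to 3.80% in PGRN KO, and *Ms4a8a* at 5.16% to 6.21% and 11.7% to 14.7%. *Ms4a7* (ENSMUSG00000024672, bases 11321039 to 11336146, minus strand), a marker of macrophages at the borders of the brain, was at 8.07, 8.78 and 8.38 FPKM in WT and at 6.47, 6.29 and 10.3 FPKM in PGRN KO. Of the latter, replicates 4 and 5 were below, and replicate 6 above, all WT libraries. Its log2 fold change was −0.15 ± 0.17, and without replicate 6 it was −0.35 and was called. *Ms4a6b* (ENSMUSG00000024677, bases 11516512 to 11531256, plus strand) was at 1.16, 1.42 and 0.865 FPKM in WT and 1.26, 0.730 and 0.813 FPKM in PGRN KO, which overlapped, with a log2 fold change of −0.15 ± 0.15 on 62 to 98 fragments per library.

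Replicate 6 stood apart from the other libraries. Across genes, its deviation from the mean of all libraries was correlated with gene length at Spearman's rho −0.47, against 0.15 to 0.24 in the other 5. The same gene lengths were used for all 6. That mean includes replicate 6, so the values of the other 5 are not independent of it. Of the 7 genes 5 were called without replicate 6, *Ms4a4c* and *Ms4a7* in addition. The calls of *Ms4a4a*, *Ms4a6c* and *Ms4a8a* were kept in each of 12 alternative analyses, with log2 fold changes of −2.35 to −1.95, −0.91 to −0.66 and 0.94 to 1.14.

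**Figure D3:**
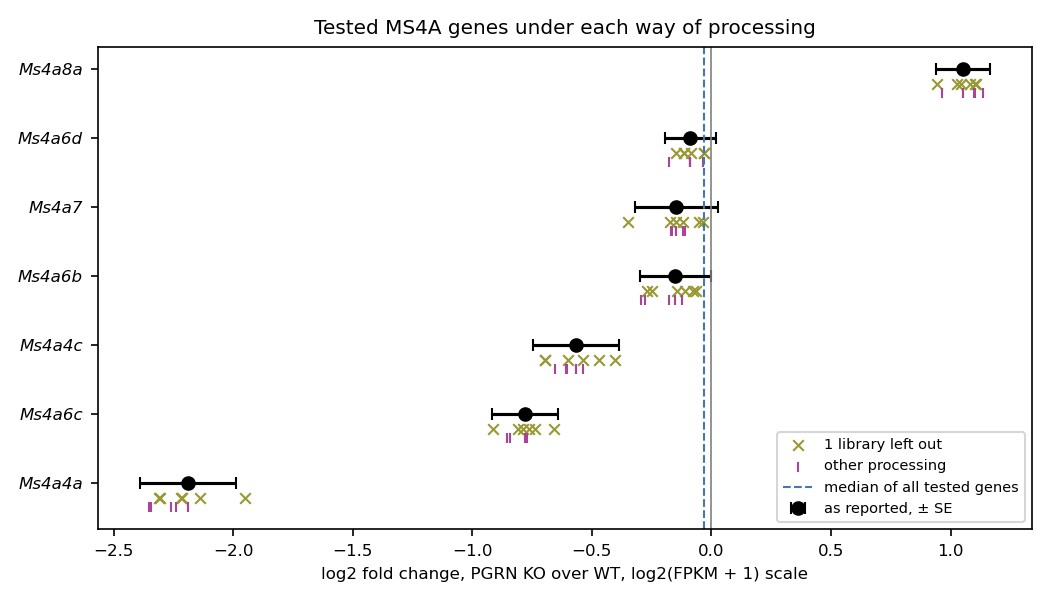
Log2 fold change, PGRN KO over WT, on the log2(FPKM + 1) scale (x axis) of the 7 tested genes (y axis). Black points and bars are the reported value ± SE, crosses leave out 1 library, ticks use other processing and the dashed line is the median of all tested genes; Ms4a4a stays below −1.9 and Ms4a8a above 0.9 throughout.

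The 3 members under the filter rested on few fragments. *Ms4a4b* (ENSMUSG00000056290, bases 11443553 to 11463549, plus strand) is known from T and NK cells, where its protein restrains proliferation. It was at 0.476, 0.513 and 0.263 FPKM in WT and at 0.996, 0.841 and 0.801 FPKM in PGRN KO, without overlap. The fragments numbered 107 over WT and 248 over PGRN KO, a ratio of mean FPKM of 2.11. *Ms4a14* (ENSMUSG00000099398, bases 11301249 to 11314454, minus strand) had 21, 6 and 8 fragments in WT and 8, 13 and 7 in PGRN KO. *Ms4a4d* (ENSMUSG00000024678, bases 11536801 to 11558467, plus strand) had 0, 3 and 4 fragments in WT and 1, 4 and 6 in PGRN KO. For *Ms4a14* and *Ms4a4d* a difference was not detectable at this depth, since the 95% intervals of the fragment ratio, which cover counting error only, ran from 0.434 to 1.25 and from 0.515 to 4.43.

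Within the pairs, the level of the higher paralog relative to the lower one was smaller in PGRN KO. *Ms4a4c* over *Ms4a4b* was 40.2, 41.3 and 57.8 in WT and 12.7, 11.2 and 18.2 in PGRN KO. *Ms4a6c* over *Ms4a6b* was 12.5, 11.0 and 16.2 in WT and 7.93, 9.25 and 9.79 in PGRN KO. Neither ratio overlapped between genotypes. Single genes did not overlap in 48.8% of all tested genes, and no such share was computed for ratios. *Ms4a4c* and *Ms4a6c* themselves did not overlap, so the ratios are no separate result. The lower paralogs rested on 25 to 91 (*Ms4a4b*) and 62 to 98 (*Ms4a6b*) fragments per library. *Ms4a6b* is also overlapped on the opposite strand by *Gm19261*. The aligned parts of the promoter windows were 76.9% and 85.9% identical.

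Markers of other cells moved beside the low members. The 9 markers of T and NK cells summed to 3.34 to 3.59 FPKM in WT and to 4.57 to 7.81 FPKM in PGRN KO, with 7 of 9 means higher in PGRN KO. Of these, *Cd3e* was at or near 0 in every library (at most 0.220 FPKM), and *Lck*, the only one tested, differed by 0.30 on the log2 scale (limma adjusted p = 0.186). Their part in the *Ms4a4b* values was not tested. The B cell markers summed to 4.82 to 6.03 FPKM in WT and 18.8 to 23.8 FPKM in PGRN KO, and the 3 tested ones, *Cd79a*, *Cd79b* and *Ighm*, all rose. *Cd79a* and *Cd79b* averaged 0.960 and 0.633 FPKM in WT and passed the filter only through PGRN KO. That these 2 tested genes rose was thus partly set by the filter. *Ms4a1* (CD20), outside the 10 genes, had 18 fragments over WT and 114 over PGRN KO. It was at 0.0869, 0.0656 and 0.0269 FPKM in WT and at 0.383, 0.307 and 0.346 FPKM in PGRN KO, and reached a limma adjusted p of 0.0149 when no filter was applied.

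**Figure D4:**
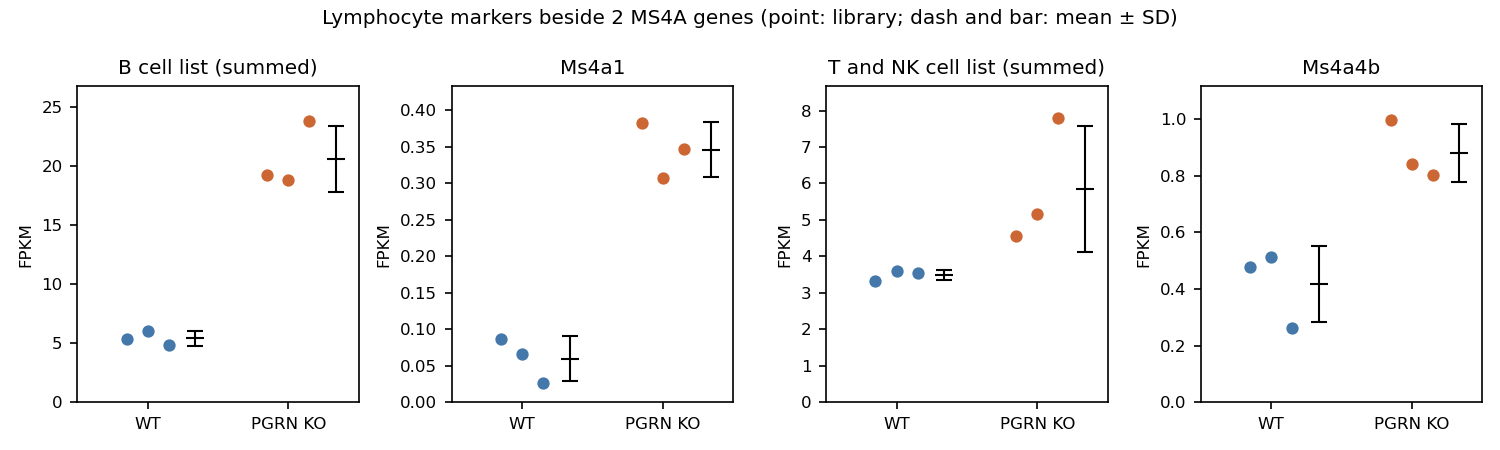
FPKM (y axis, from 0) in 3 WT and 3 PGRN KO libraries (x axis) of the summed B cell markers, Ms4a1, the summed T and NK cell markers and Ms4a4b. Points are libraries and the dash and bar give mean ± SD (n = 3); in all 4 panels the PGRN KO libraries lie above the WT libraries.

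The libraries carried the markers of macrophages, all 10 of which were tested and summed to 11846 to 12791 FPKM in WT and 10594 to 14641 FPKM in PGRN KO, with *Mertk* higher and *Csf1r* and *C1qb* lower in PGRN KO. Of the 8 markers of large peritoneal macrophages, 4 had a higher mean in PGRN KO. *Timd4*, *Alox15* and *Selp* were at or near 0. *Cd5l* and *Icam2* rose, while *Gata6*, at 3.78 to 5.07 FPKM, did not pass. *Prg4*, the highest of the 8 in WT, averaged less in PGRN KO and did not pass either (12.7 ± 2.04 against 14.2 ± 1.82 FPKM, limma adjusted p = 0.457). Of the markers of monocytes and small peritoneal macrophages *Chil3* rose, and *Ly6c2* (11.6 to 12.7 FPKM in WT, 3.01 to 3.70 FPKM in PGRN KO) and *Fn1* fell. Mast cell markers summed to 9.24 to 12.7 FPKM in WT and 17.9 to 23.8 FPKM in PGRN KO, with *Tpsb2* and *Cma1* raised. *Cma1* averaged 0.789 FPKM in WT and passed the filter only through PGRN KO. The third tested mast cell marker, *Hdc*, which made up most of the WT sum, did not pass (8.43 ± 1.61 and 8.48 ± 1.25 FPKM, SD, n = 3 each, limma adjusted p = 0.956), and *Kit*, not tested, had 150 fragments over WT and 99 over PGRN KO. The sum of neutrophil markers was 48.8 to 53.2 FPKM in WT and 21.4 to 26.3 FPKM in PGRN KO, nearly all of it *S100a8*, while *Ly6g*, *Elane* and *Cxcr2* were at 0 in every library. Dendritic cell markers summed to at most 2.27 FPKM in WT and to at most 1.46 FPKM in PGRN KO. The part of these cell types in the differences of *Ms4a4a*, *Ms4a6c* and *Ms4a8a* was not tested.

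Other genes of the superfamily were hardly expressed. Of 11 (9 further *Ms4a* genes, *Tmem176a* and *Tmem176b*), 0 reached a mean of 1 FPKM over the 6 libraries, and 8, *Ms4a2* and *Ms4a3* among them, had 0 fragments in every library, which allows up to 3 per library. *Ms4a2* was thus at 0 although mast cell markers were detected. *Tmem176a* had 88 fragments over WT and 42 over PGRN KO (limma adjusted p = 0.0529 with no filter) and *Tmem176b* 134 and 90 (adjusted p = 0.452), the latter averaging 1.14 FPKM in WT against 0.724 FPKM in PGRN KO. These 2 and *Ms4a1* were singled out after their values were seen.

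Of 12 known or likely partners of MS4A proteins (receptors, adaptors and tetraspanins), 10 were tested, 1 rose, 1 fell and 8 did not pass. The share called over all tested genes was 24.2%, so that this count does not set the partners apart. *Trem2*, a lipid receptor of macrophages, was at 29.6, 31.1 and 31.9 FPKM in WT and at 45.8, 45.7 and 75.8 FPKM in PGRN KO, and rose by 0.79 on the log2 scale (limma adjusted p = 0.0292). *Syk*, the kinase downstream of Dectin-1 and Fc receptors, was at 87.9, 89.4 and 88.0 FPKM in WT and fell to 67.8, 68.3 and 54.0 FPKM (−0.48, adjusted p = 0.0239). The Dectin-1 gene *Clec7a* was at 359 to 402 FPKM in WT and 367 to 386 FPKM in PGRN KO. Neither *Trem2* nor *Syk* was called when any 1 WT library was left out, and 3 partners were called without PGRN KO replicate 6.

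Of 14 genes of alternative activation, with which *Ms4a4a* is commonly grouped, 12 were tested, 2 rose and 4 fell, with a median log2 fold change of −0.27. Over all tested genes 10.4% were called higher and 13.8% lower. *Arg1*, arginase 1, fell from 204 ± 29.1 to 103 ± 12.7 FPKM (SD, n = 3 each, −0.97, limma adjusted p = 0.00559). The lectin *Clec10a* fell from 2.65 to 0.958 FPKM on average, the interleukin 4 receptor chain *Il4ra* from 59.1 to 43.2 FPKM and the transglutaminase *F13a1* from 1.65 to 1.01 FPKM. With that PGRN KO mean, *Clec10a* passed the filter only through WT. The chitinase-like *Chil3* rose from 1328 ± 58.8 to 2343 ± 201 FPKM (0.82, adjusted p = 0.00505), and the chemokine *Ccl24* from 2.04 to 3.51 FPKM. *Mrc1* (CD206) did not pass, at 9.75, 9.70 and 8.65 FPKM in WT and 8.46, 8.50 and 5.76 FPKM in PGRN KO. *Cd209a* was at 0. With any 1 WT library left out 3 genes were called, and 9 without PGRN KO replicate 6. Members of this list thus lay on both sides, as *Ms4a4a* and *Ms4a8a* did.

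Among 36 other protein-coding genes within 500 kb of the cluster, 14 were tested, 1 rose and 1 fell, and 9 were at 0 in every library. For comparison, 24.2% of all tested genes were called. The median log2 fold change of the 14 was 0.07. *Cyb561a3*, a cytochrome b561 family gene, rose from 2.88 ± 0.285 to 4.77 ± 0.439 FPKM (0.57, limma adjusted p = 0.0103), and *Tmem132a* fell from 13.5 ± 0.426 to 7.999 ± 1.29 FPKM (−0.70, adjusted p = 0.00816). Without WT replicate 2 or 3 the count was 1, and without PGRN KO replicate 6 it was 5.

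The genes most like *Ms4a4a* were sought among 8077 tested genes, by the root-mean-square difference of log2(FPKM + 1) minus the WT mean over the 6 libraries. The search used the difference between genotypes itself, so a fall in PGRN KO was set by the choice and is no separate result. They were *Nr4a2* (difference 0.381), *Flrt3* (0.381), *Mir6962* (0.453), *Snord37* (0.490) and *Sdc1* (0.492). *Nr4a2*, an orphan nuclear receptor, averaged 10.1 ± 0.626 FPKM in WT against 2.51 ± 0.670 FPKM in PGRN KO, and *Flrt3*, a leucine-rich membrane protein, at 28.8 ± 2.91 and 8.10 ± 1.24 FPKM. The heparan sulphate proteoglycan gene *Sdc1*, syndecan 1, was at 61.7 ± 5.86 and 19.0 ± 2.31 FPKM. The short genes *Mir6962* and *Snord37* were at 3.82 ± 1.74 and 2.26 ± 0.794 FPKM in WT, with *Snord37* listed at 0 in all PGRN KO libraries. *Mir6962* averaged 0.279 FPKM in PGRN KO, so that both passed the filter only through WT. FPKM values of this size in such short genes rest on few fragments. These genes lie on chromosomes 2, 2, 15, 10 and 12, none on that of the cluster.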

How the data were processed

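Polyadenylated RNA of 3 WT and 3 PGRN KO macrophage cultures was sequenced. The submitters' processing notes list CASAVA, HISAT2 2.0.5, featureCounts 1.5.0-p3, DESeq2 1.20.0 and the build GRCm38, while the study's methods name HISAT and HTSeq. The authors deposited FPKM per gene. The sources used here give neither the annotation release nor the strand setting. By identifier 99.8% of genes were found in GENCODE M21.

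FPKM times gene length was a whole multiple of 1 step per library (tolerance 0.001 of a step), which gave fragments. Because FPKM are not counts, limma 3.58.1 (R 4.3.3; trend, two-sided, Benjamini-Hochberg) was run on log2(FPKM + 1). The fit was tested on simulated data. With 3 against 3 libraries an exact permutation test of 1 gene cannot go below p = 0.1. Proteins were aligned with Biopython 1.88 (BLOSUM62, global). Alternatives were a pseudocount of 0.1, no filter, a mean FPKM of at least 5, a TPM scale, loess correction for gene length (span 0.5), voom on fragments and leaving out each library.

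The members and lists were chosen with earlier results of these data known. Named genes were all members, *Grn*, list genes past the threshold (at most 4 a direction), markers at or near 0, and the 5 genes most like *Ms4a4a*, leaving out predicted models.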

Additional observations from a re-analysis of the deposited data

How the results depend on the processing

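No paired analysis was run because the labels used here state no pairing of WT with PGRN KO libraries. The replicate numbers, 1 to 3 in WT and 4 to 6 in PGRN KO, are running sample numbers. Under each of the alternatives, every tested member moved by less than 1 SD between replicates and kept its direction. Over all genes 2151 were called, 921 higher and 1230 lower. With no filter there were 1366 (603 higher, 763 lower), requiring a mean of 5 FPKM 529 were higher, and on the TPM scale 593 lower. Leaving out 1 library gave 713 to 3668, of which 331 to 1438 were higher and 382 to 2230 lower. PGRN KO replicate 6 gave the most when left out, and WT replicate 1 the fewest. Members called ranged from 3 to 5, and 4 were called on the TPM scale and after length correction. The median log2 fold change of the members ranged from −0.35 to −0.077 and was −0.36 at a mean FPKM of at least 5, where *Ms4a6b* was not tested. Superfamily genes outside the members gave 1 call with no filter (*Ms4a1*). Partners gave 1 call on the TPM scale, 0 with no filter (limma, 4 at an unadjusted p under 0.05) and 0 to 3 with 1 library left out (0 without any 1 WT library, 2 at an unadjusted p under 0.05, and voom with all libraries called 2). Alternative activation genes gave 3 to 9 calls and flanking genes 1 to 5 with 1 library left out, and flanking genes 1 at a mean FPKM of at least 5. The causes were not tested. Depth limits *Ms4a4d*, *Ms4a14* and, less, *Ms4a4b*.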
